A study of Mus musculus with 8 samples.

Results

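The 31 genes described here encode subunits of RNA polymerases I, II and III in the mouse. They are the RefSeq protein-coding genes whose symbols begin with Polr1, Polr2 or Polr3, together with Znrd1, Twistnb and Cd3eap, out of 21887 protein-coding genes on the 21 main chromosomes. The products of 6 of them (Cd3eap, Polr1a, Polr1b, Polr1e, Twistnb and Znrd1) belong to polymerase I only, and those of Polr1c and Polr1d to polymerases I and III. A further 5 (Polr2e, Polr2f, Polr2h, Polr2k and Polr2l) serve all 3 enzymes, 8 were placed with polymerase II only and 10 with polymerase III only. For each gene, the peaks of 6 deposited lists were read in a window made of the gene body and 1 kb on either side.

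The lists come from ChIP-seq, which sequences the DNA that stays crosslinked to an immunoprecipitated protein, in primary neural progenitor cells grown from the hippocampus of male C57BL/6 mice. Chromatin was fixed with formaldehyde and sheared by sonication. The precipitated proteins were Polr1c, itself a polymerase subunit, Mgea5, which takes the sugar O-GlcNAc off proteins (its gene is now called Oga), and Panx2, a pannexin channel protein, with 2 libraries each, and 2 input libraries were not analysed here. The study's title names the miR-9 locus as its object, so the subunit genes were not its stated target. No source says that the repeats came from separate cultures, so a difference between the replicates of a protein may be technical. Peak lists do not measure expression, and the cell type label was therefore not checked against marker genes.

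RNA polymerase I transcribes the large ribosomal RNA precursor in the nucleolus, RNA polymerase II transcribes messenger RNAs, and RNA polymerase III transcribes transfer RNAs, the smallest ribosomal RNA and other short RNAs. The enzymes share a set of small subunits. Polr1c and Polr1d form a pair that holds polymerases I and III together during assembly, in the place that Polr2c and Polr2j take in polymerase II. The subunit genes are themselves transcribed by polymerase II as messenger RNA genes.

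Each peak carries a fold enrichment over background, a −log10 p and a −log10 q (q is the p-value corrected for the number of places tested) that are the authors' values from the peak caller. They serve here only to describe and rank peaks within a list. The lists differ in length and layout, from 785 and 35727 narrow peaks for Polr1c to 536399 and 520997 broad peaks for Mgea5 and 145209 and 478180 for Panx2 in replicates 1 and 2 on the main chromosomes. Peak names place Polr1c replicate 1 and Panx2 replicate 1, the shorter list of each protein, in one calling run and the other 4 lists in another. More peaks or a higher fold in one list than in another is therefore not more binding. Read depth is not known, and a gene without a peak is a gene where none was listed.

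The promoters below carry the positions on which the Polr1c and Mgea5 results turn, as RefSeq gives them on GRCm38.p6 (the mm10 coordinates), from 250 bases before to 50 bases after the annotated start, 5′ to 3′ on the gene's own strand. The Polr3e promoter is the only one among the 25 subunit genes with a RefSeq promoter that a Polr1c peak overlapped, and capitals mark the 71 bases of the tRNA gene n-TLaag4 that lie inside it (chr7:120917528-120917827, plus strand). The Lnx2 promoter (chr5:147076523-147076822, minus strand) lies beside Polr1d and holds the summits of both Polr1c replicates there, and capitals mark the 272 bases that the peaks of both replicates cover. The Polr2j promoter (chr5:136116441-136116740, plus strand) holds part of the Mgea5 region with the highest fold over both replicates among the subunit genes. Capitals mark the 183 promoter bases that the Mgea5 peaks of both replicates cover, out of the 389 bp of that region. The Lnx2 and Polr2j promoters were chosen after the values had been seen.
Polr3e promoter: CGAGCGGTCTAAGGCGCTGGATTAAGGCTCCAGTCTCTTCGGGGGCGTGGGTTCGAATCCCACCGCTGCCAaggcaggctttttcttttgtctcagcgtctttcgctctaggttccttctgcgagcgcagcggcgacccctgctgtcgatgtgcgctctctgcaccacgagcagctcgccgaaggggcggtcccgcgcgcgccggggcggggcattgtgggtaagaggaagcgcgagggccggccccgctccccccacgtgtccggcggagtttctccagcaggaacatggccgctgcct
Lnx2 promoter: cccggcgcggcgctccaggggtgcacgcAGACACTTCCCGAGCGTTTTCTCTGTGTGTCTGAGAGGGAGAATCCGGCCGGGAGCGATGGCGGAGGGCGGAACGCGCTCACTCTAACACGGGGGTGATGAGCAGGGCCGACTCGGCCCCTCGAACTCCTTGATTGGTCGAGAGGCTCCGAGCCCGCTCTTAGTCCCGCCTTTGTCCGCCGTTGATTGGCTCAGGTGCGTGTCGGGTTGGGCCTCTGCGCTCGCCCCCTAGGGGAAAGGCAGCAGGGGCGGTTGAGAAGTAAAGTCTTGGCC
Polr2j promoter: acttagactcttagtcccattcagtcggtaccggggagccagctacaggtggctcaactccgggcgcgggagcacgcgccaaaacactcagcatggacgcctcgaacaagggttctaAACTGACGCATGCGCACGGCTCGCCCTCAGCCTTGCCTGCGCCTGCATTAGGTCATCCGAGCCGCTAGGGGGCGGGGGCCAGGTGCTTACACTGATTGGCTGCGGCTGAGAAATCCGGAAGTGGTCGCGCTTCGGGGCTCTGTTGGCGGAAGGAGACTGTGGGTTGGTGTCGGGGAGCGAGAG

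Polr1c peaks separated into 1 place found in both replicates, next to Polr1d, and a scatter of replicate 2 peaks at other subunit genes. In replicate 1, 1 of the 31 genes (3.23%) had a Polr1c peak, against 1.48% of all protein-coding genes. In replicate 2, 15 of the 31 (48.4%) had one, against 42.6% of all protein-coding genes. The share in replicate 2 was thus near that of genes at large. Polr1d was the 1 gene with peaks of both replicates, against 1.28% of all protein-coding genes, and also the 1 gene where the peaks of the replicates overlapped, against 0.685%.

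At a −log10 q of at least 2 (a q of at most 0.01), Polr1d was the 1 subunit gene with a peak in replicate 1, against 0.475% of all protein-coding genes. Polr1d and Polr2h were the 2 with such a peak in replicate 2, against 3.71%, and Polr1d the 1 in both, against 0.425%. The Polr3e peak over the tRNA gene, at a −log10 q of 1.88, lay just below that level. Of the 24 replicate 2 peaks at the subunit genes, 3 had a −log10 q of 0, and folds were between 2.14 and 3.67 with a median of 2.75. A further peak each at Polr2b, Polr2d, Polr2j, Polr3a, Polr3b and Polr3c had a −log10 q of 0.00137, which is close to 0.

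**Figure D1:**
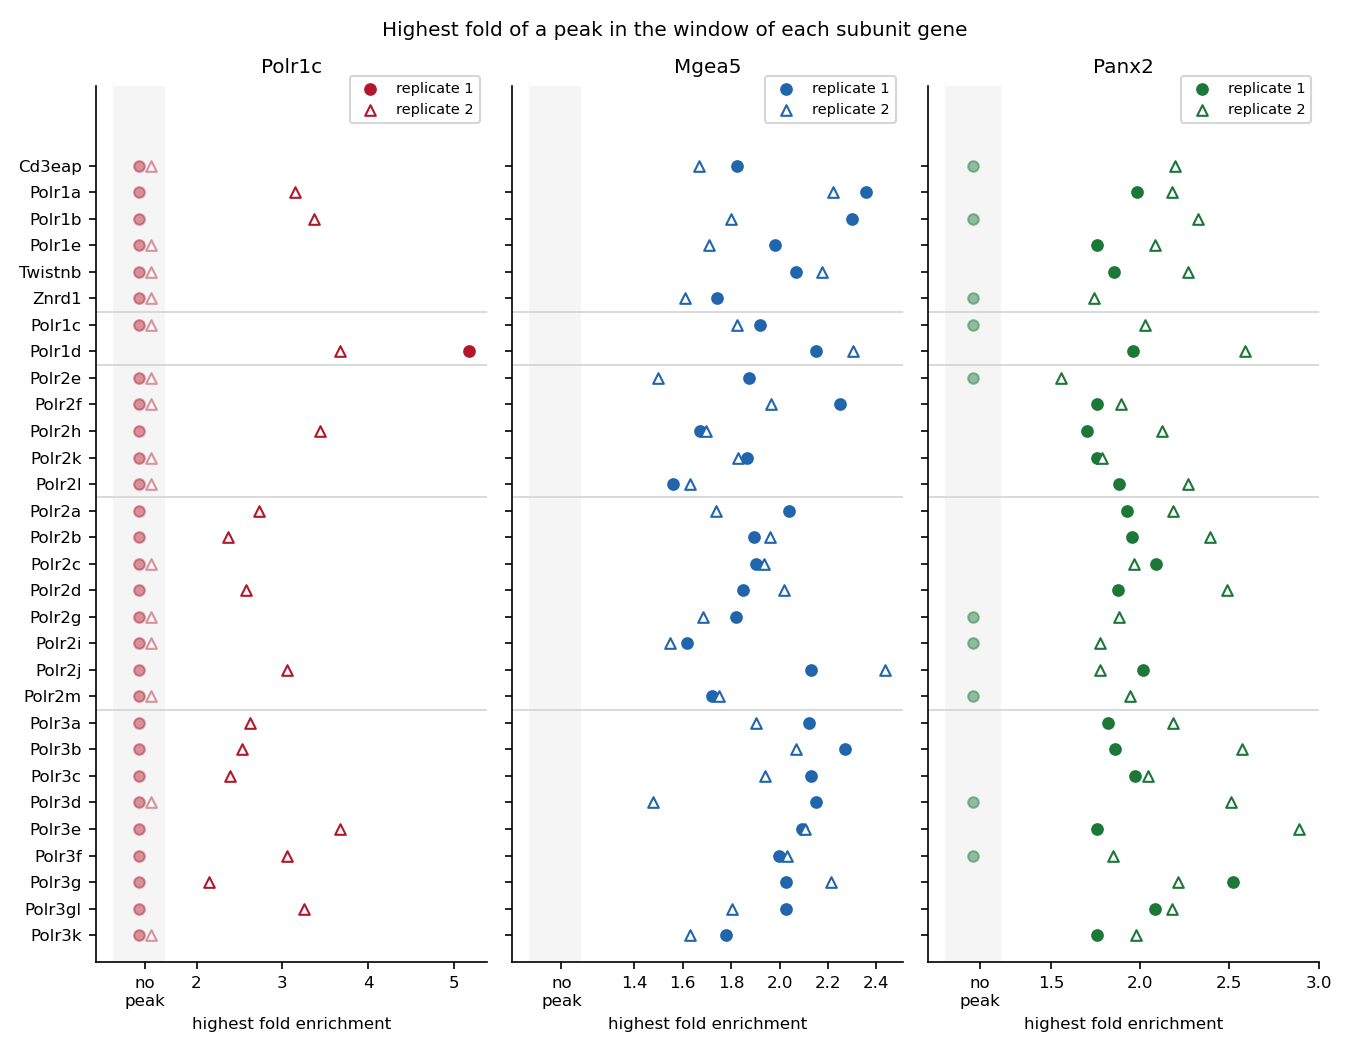
Highest fold enrichment (horizontal axis, the authors' value per peak, separate scale for each protein) of any peak in the window of each of the 30 subunit genes with Mgea5 peaks in both replicates, with filled circles for replicate 1 and open triangles for replicate 2, and pale symbols in the grey strip for genes with no peak in that list. Grey lines part the genes of polymerase I, of I and III, of all 3 enzymes, of II and of III. The 1 filled circle with a fold in the Polr1c panel is Polr1d at 5.18.

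Polr1d encodes the small partner of Polr1c (chr5:147076715-147111361, plus strand). Its Polr1c peak in replicate 1 ran over chr5:147076360-147076794 with a fold of 5.18 and a −log10 q of 3.74. The replicate 2 peak ran over chr5:147076446-147077039 with a fold of 3.52 and a −log10 q of 9.69. By p-value the first ranked 170 of 785 peaks in its list and the second 305 of 35727.

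The summits of both peaks lay closer to the neighbouring gene than to Polr1d's annotated start. In replicate 1 the summit was 3 bp, and in replicate 2 it was 5 bp, from the RefSeq start of Lnx2, a ubiquitin ligase gene transcribed in the opposite direction. Counted from the RefSeq start of Polr1d, the summits stood at −777 bp in replicate 1 and −769 bp in replicate 2, upstream of it. The RefSeq gene model of Polr1d begins upstream of that start, 146 and 138 bp from the summits. Neither peak reached the 300 bases of the Polr1d promoter, which began 301 bp past the end of the replicate 1 peak and 56 bp past that of replicate 2. Both peaks overlapped a Mgea5 replicate 1 peak and a Panx2 replicate 2 peak, and no peak of the other list of either protein. The Mgea5 peak met only the edge of each, ending at chr5:147076454, and held neither summit. Both summits lay inside the Panx2 peak.

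Replicate 2 had 3 more Polr1c peaks inside Polr1d, with folds of 3.06, 3.67 and 3.06, that had no counterpart in replicate 1. Among the 281 protein-coding genes with Polr1c peaks of both replicates, Polr1d ranked 107 by the geometric mean of the highest folds, at 4.36, against a median of 3.46 for those genes. The replicate 2 fold in that mean, 3.67, came from a peak inside the gene and not from the place shared with replicate 1. At the shared place the geometric mean was 4.27. Mgea5 had 14 peaks in the Polr1d window in replicate 1 and 13 in replicate 2, with highest folds of 2.15 and 2.31. Panx2 had 4 peaks in replicate 1 and 16 in replicate 2, with highest folds of 1.96 and 2.59. Polr1d was thus also among the 5 subunit genes with the highest geometric mean fold for Mgea5 and for Panx2. For both Mgea5 and Panx2, the highest folds of the replicates came from different places in this window of over 30 kb.

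The Polr1c gene (chr17:46243920-46248045, minus strand), whose product was precipitated, had no Polr1c peak in either list. Mgea5 had 2 peaks in its window in replicate 1, with a highest fold of 1.92, and 3 in replicate 2, with 1.82. Panx2 had none in replicate 1 and 3 in replicate 2, with a highest fold of 2.03. The window also holds parts of Xpo5 and Yipf3.

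**Figure D2:**
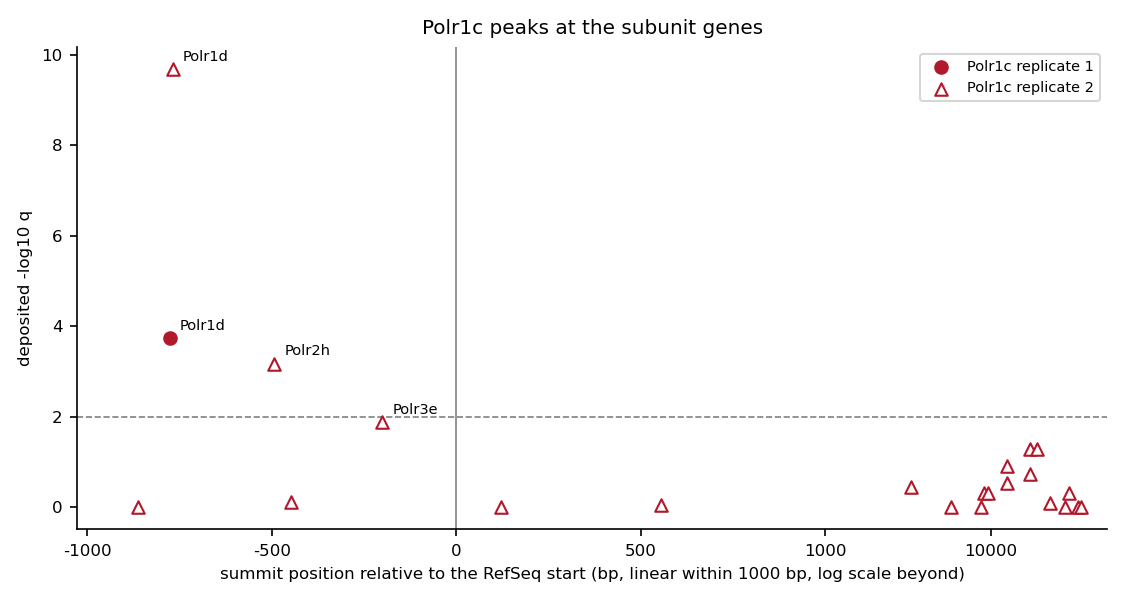
Summit positions of the Polr1c peaks at subunit genes with a RefSeq start (horizontal axis, bp from that start, negative upstream, linear within 1000 bp and logarithmic beyond) against the deposited −log10 q (vertical axis), with a dashed line at 2. The peaks over the line are those of Polr1d in both replicates and Polr2h in replicate 2, all upstream of the start, and the Polr3e peak at 1.88 is just under it.

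Polr2h, a small subunit that binds nucleic acid in all 3 enzymes, had 1 Polr1c peak in replicate 2 (chr16:20717228-20717465), with a fold of 3.44 and a −log10 q of 3.17, and none in replicate 1. It ranked 831 of 35727 by p-value. The summit lay 493 bp upstream of the Polr2h start (gene at chr16:20717826-20722272, plus strand), inside the gene model of the chloride channel gene Clcn2, which runs in the opposite direction. It is 413 bp from the 5′ end of that model and 697 bp upstream of the Clcn2 RefSeq start. The peak ended 110 bp before the Polr2h promoter. It overlapped a Mgea5 replicate 1 peak and a Panx2 replicate 2 peak. Over the whole window Mgea5 had 1 peak in each replicate, with folds of 1.67 and 1.70, and Panx2 had 1 and 3, with highest folds of 1.70 and 2.12.

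Polr3e, which belongs to a subcomplex of polymerase III with Polr3d, had 3 Polr1c peaks in replicate 2 and none in replicate 1. One of them (chr7:120917503-120917679, fold 2.74) spanned all of n-TLaag4 (chr7:120917517-120917598), a tRNA gene named for leucine and the anticodon AAG. Transfer RNA genes are transcribed by polymerase III from promoter elements inside the gene. The summit fell on base 61 of the tRNA gene, 201 bp upstream of the Polr3e start, and the peak overlapped the Polr3e promoter by 152 bp. That base is the first of the letters GGTTCGA, bases 50 to 56 of the printed promoter, which belong to the internal promoter element known as the B box. A Mgea5 replicate 2 peak also overlapped this Polr1c peak, and no Panx2 peak did.

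The other Polr1c peaks of Polr3e had summits 556 bp downstream of the start, with a fold of 2.29, and 18859 bp downstream, with a fold of 3.67. Panx2 replicate 2 had a peak just after the Polr3e start (chr7:120917786-120918516) with a fold of 2.89, the highest of Panx2 at any subunit gene. Panx2 replicate 1 had 1 peak in the window, with a fold of 1.76. Mgea5 had 11 and 9 peaks there, with highest folds of 2.09 and 2.11.

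**Figure D3:**
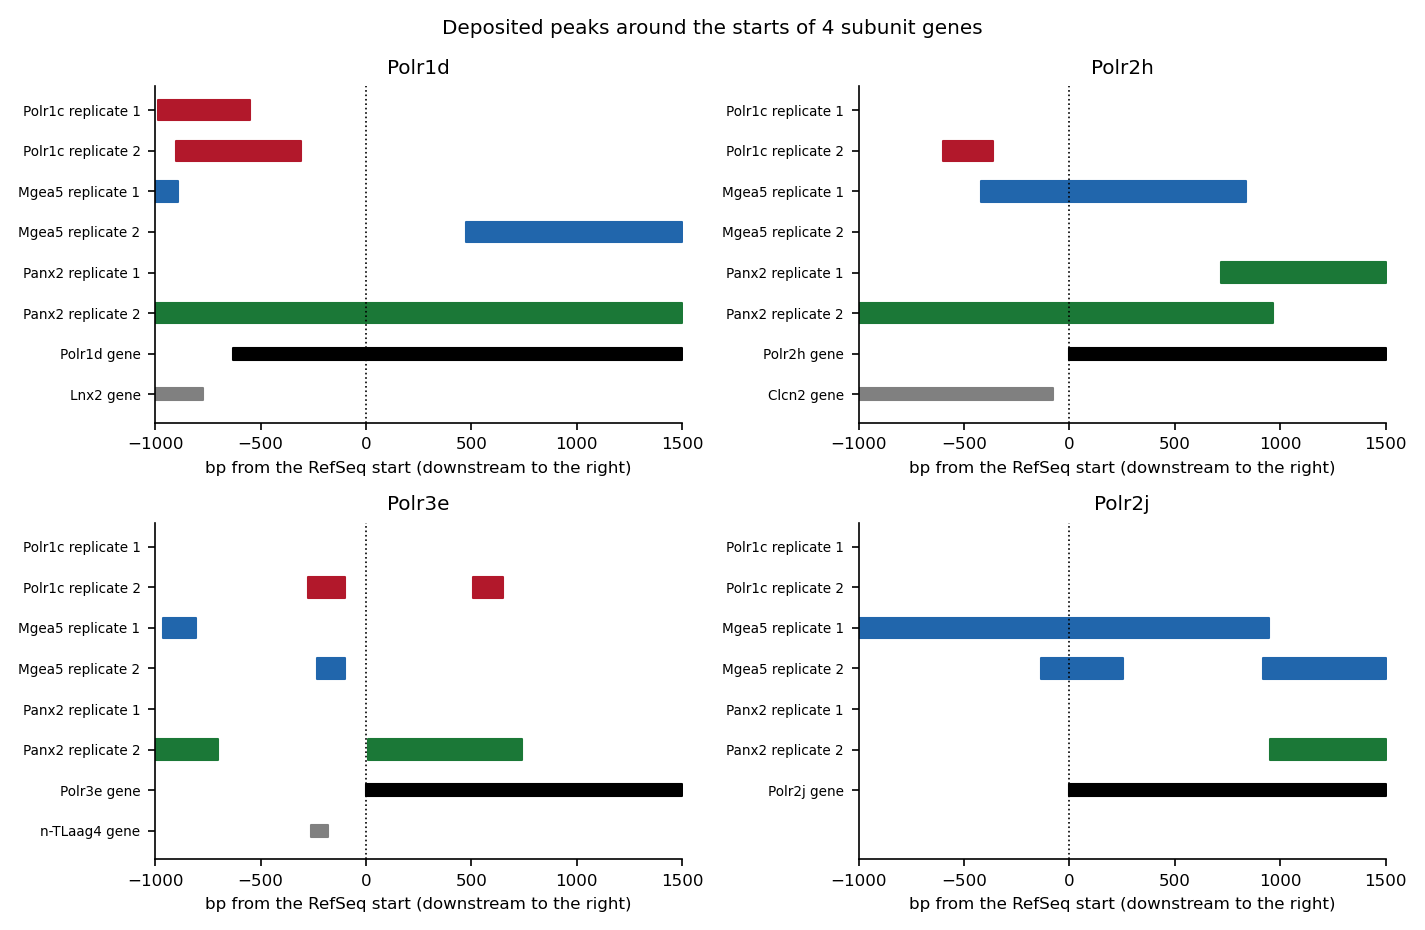
Deposited peaks of the 6 lists (bars, one row a list) around the RefSeq start (dotted line) of Polr1d, Polr2h, Polr3e and Polr2j, in bp along the direction of transcription (horizontal axis), with the subunit gene in black and a neighbouring gene in grey. Polr1c peaks lie upstream of the start of Polr1d, Polr2h and Polr3e, with one more downstream of that of Polr3e, and the Mgea5 peaks of both replicates lie over the start of Polr2j.

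By enzyme, Polr1c replicate 2 peaks were listed at 2 of 6 polymerase I genes, 1 of 2 genes shared by I and III, 1 of 5 genes of all 3 enzymes, 4 of 8 polymerase II genes and 7 of 10 polymerase III genes. The share over all protein-coding genes was 42.6%. Longer windows held a peak more often. Among the 15 subunit genes with windows under 10 kb, 3 had a peak, against 15.0% of protein-coding genes of that length. From 10 to 30 kb it was 5 of 9, against 36.9%, and over 30 kb it was 7 of 7, against 71.8%. Polr1d, Polr1a, Polr2b, Polr3a, Polr3b, Polr3e and Polr3g are the 7 with the longest windows.

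The largest 2 subunits of each enzyme form its catalytic centre, and their genes are among the longer ones. For polymerase I, Polr1a had a Polr1c replicate 2 peak with a fold of 3.15 and Polr1b one with 3.36, both in the gene body, 12543 and 17238 bp from the start. For polymerase II, Polr2a had 1 with a fold of 2.73. Polr2b had 3 with a highest fold of 2.37, of which the nearest to the start lay 864 bp upstream, inside Noa1. For polymerase III, Polr3a had 1 with a fold of 2.63 and Polr3b 1 with 2.53. None of these genes had a −log10 q over 0.736 for Polr1c, and none had a replicate 1 peak.

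The remaining polymerase III genes with a Polr1c replicate 2 peak encode the subcomplex of Polr3c, Polr3f and either Polr3g or Polr3gl that acts in initiation. Polr3c had 2 peaks on either side of its promoter, 38 and 85 bp from it, with folds of 2.39 and 2.27, the second inside the ubiquitin ligase gene Rnf115. Polr3f had 1 with a fold of 3.06, Polr3g 1 with 2.14 and Polr3gl 1 with 3.25, all in the gene body, 9624, 34970 and 12523 bp from the start. In polymerase II, Polr2j had 2 with folds of 3.06 and 2.75, and Polr2d, which forms a stalk with Polr2g, had 1 with 2.57. The highest −log10 q among the peaks of these 6 genes was 0.903, at Polr3gl. No Polr1c peak was listed at the genes of the paired polymerase I subunits Cd3eap and Polr1e, the stalk subunit Twistnb, Znrd1, which takes part in cleaving the nascent RNA, or Polr1c. The common subunits Polr2e, Polr2f, Polr2k and Polr2l had none either, nor had Polr2c, Polr2g, Polr2i and Polr2m of polymerase II. In polymerase III, Polr3d and Polr3k, which acts in RNA cleavage and termination, were among those with none.

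Peaks with any base within 1000 bp of a RefSeq start were also counted, for the 25 subunit genes and 17492 protein-coding genes that have such a start. Polr1c replicate 2 peaks were found at 5 of 25 genes, against 15.4% of all protein-coding genes. These are Polr1d, Polr2h, Polr2b, Polr3c and Polr3e. Of the 24 replicate 2 peaks, 19 had their summit inside the gene body. The window adds only 1 kb on either side of the body, and summits were not counted in this way over all protein-coding genes.

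Mgea5 peaks were listed at nearly every subunit gene, as they were at most protein-coding genes. In replicate 1 all 31 genes had one, against 88.8% of all protein-coding genes, and in replicate 2 it was 30 (96.8%), against 85.0%. Both replicates had a peak at 30 genes, against 82.0%, and overlapping peaks at 27, against 70.6%. Polr2h, Polr2l and Polr2d had a Mgea5 peak of each replicate, at different places. The highest Mgea5 fold of a subunit gene was between 1.56 at Polr2l and 2.36 at Polr1a in replicate 1, and between 1.48 at Polr3d and 2.44 at Polr2j in replicate 2.

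**Figure D4:**
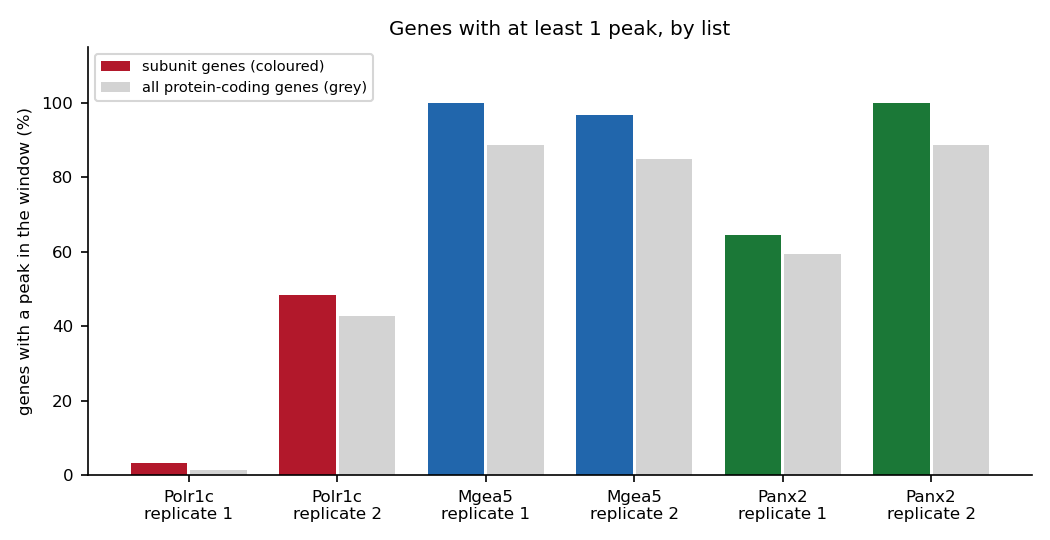
Share of genes with at least 1 peak in the window (vertical axis, percent) in each of the 6 lists, with the 31 subunit genes in colour on the left of each pair and all 21887 protein-coding genes in grey on the right. In each list the coloured bar is the higher one, by the amounts given in the text, and no test was made of the difference.

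The share of peaks with a −log10 q of 0 was not counted over the whole lists. Most of these Mgea5 peaks had that value, namely 203 of 217 in replicate 1 and 173 of 183 in replicate 2. None of them reached a −log10 q of 2, against 94 protein-coding genes (0.429%) with one that did in replicate 1 and 109 (0.498%) in replicate 2. The strongest place at a subunit gene was the start of Polr2j, the polymerase II counterpart of Polr1d. The replicate 1 peak there (chr5:136115368-136117638) had a fold of 2.13 and a −log10 q of 0.761, and the replicate 2 peak (chr5:136116558-136116946) had a fold of 2.44 and a −log10 q of 1.74. They ranked 407 of 536399 and 122 of 520997 by p-value, and they shared 389 bp that hold the RefSeq start. No Polr1c or Panx2 peak overlapped either of them. Elsewhere in the Polr2j window, the Polr1c replicate 2 peaks lay 3277 and 5723 bp downstream of the start, and Panx2 had 1 peak with a fold of 2.02 in replicate 1 and 3 with a highest fold of 1.77 in replicate 2.

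By the geometric mean of the highest folds of both replicates, the leading genes for Mgea5 were Polr1a at 2.29, Polr2j at 2.28, Polr1d at 2.23, Polr3b at 2.17 and Twistnb at 2.12. The highest fold was taken over all peaks of a window. Polr1a, Polr1d and Polr3b have windows over 30 kb, and Polr2j and Twistnb have shorter ones. At Polr1a, which had 26 and 20 Mgea5 peaks, the highest folds, 2.36 and 2.22, came from different places in the gene body, and the same held for Polr3b, with 2.27 and 2.07, and for Polr1d. At Twistnb, a stalk subunit of polymerase I that is bound by an initiation factor, the peaks with the highest folds, 2.07 and 2.18, overlapped by 121 bp in the gene body. Polr2j is thus the 1 leading gene whose highest peaks of both replicates meet at the start.

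Mgea5 peaks lay near the start of most subunit genes. In replicate 1 some part of a peak lay within 1000 bp of a RefSeq start at 22 of 25 subunit genes (88.0%), against 71.4% of all protein-coding genes, and in replicate 2 at 19 (76.0%), against 52.2%. No test was made of this difference. The middle of a peak lay that close at 16 genes in replicate 1 and 14 in replicate 2. Middles were not counted over all protein-coding genes, so these counts have no share to stand beside. With each Mgea5 list held to its 5000 peaks of lowest p-value, 4 subunit genes (12.9%) had a peak of both replicates, against 4.2% of all protein-coding genes, namely Polr2j, Polr3a, Polr3c and Polr3f. At Polr3f the peaks overlapped the start, with folds of 1.94 and 2.0, and lay within 200 bp of the neighbouring gene Dzank1. At Polr3c the peaks shared 2456 bp with folds of 2.13 and 1.94. Those bases hold the RefSeq start of Polr3c and also that of the neighbouring gene Rnf115. At Polr3a the shared bases lay at a gene end, with folds of 2.12 and 1.90.

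Panx2 peaks in both replicates were fewer, with a wide gap between the lists. In replicate 1, 20 of the 31 genes (64.5%) had a Panx2 peak, against 59.5% of all protein-coding genes. In replicate 2 all 31 had one, against 88.6%. Both replicates had a peak at 20 genes (64.5%), against 57.1%. Overlapping peaks were found at 9 genes (29.0%), against 38.3% of all protein-coding genes. All 36 replicate 1 peaks had a −log10 q of 0, and so did 127 of the 218 replicate 2 peaks. The whole Panx2 lists were not counted in this way. No Panx2 peak at a subunit gene reached a −log10 q of 2, against 1 protein-coding gene (0.00457%) with one that did in replicate 1 and 198 (0.905%) in replicate 2.

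By enzyme, Panx2 peaks of both replicates were listed at 3 of 6 polymerase I genes, 1 of 2 genes shared by I and III, 4 of 5 genes of all 3 enzymes, 5 of 8 polymerase II genes and 7 of 10 polymerase III genes. The share over all protein-coding genes was 57.1%, and 38.3% for overlapping peaks. Overlapping peaks were listed at Polr1a, Polr1e and Twistnb of polymerase I, at Polr1d, at Polr2h and Polr2l of the common subunits, and at Polr3b, Polr3e and Polr3g of polymerase III, and at none of the 8 polymerase II genes. All of those 8 except Polr2a and Polr2b have windows under 10 kb, as Polr2h and Polr2l do. Polr3b, Polr3e and Polr3g have windows over 30 kb. Among windows under 10 kb, 7 of 15 subunit genes had Panx2 peaks of both replicates, against 19.3% of protein-coding genes of that length. From 10 to 30 kb it was 6 of 9, against 56.6%, and over 30 kb it was 7 of 7, against 90.5%. Some part of a Panx2 peak lay within 1000 bp of a RefSeq start at 3 of 25 genes in replicate 1 (12.0%), against 13.8%, and at 23 in replicate 2 (92.0%), against 75.2%. The middle of a peak lay that close at 2 and 19 genes, a count that was not made over all protein-coding genes.

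The leading genes for Panx2 by the geometric mean of the highest folds were Polr3g at 2.36, Polr3e at 2.25, Polr1d at 2.25, Polr3b at 2.19 and Polr2b at 2.16. All of them are among the 7 genes with windows over 30 kb, and the highest fold was taken over all peaks of a window. The part of window length in this order was not tested. Polr3g and Polr3gl are alternative versions of one subunit, and Polr3g is known for its high level in stem cells. Panx2 had 2 peaks in the Polr3g window in replicate 1 and 15 in replicate 2, with highest folds of 2.52 and 2.21, and Mgea5 had 13 and 11, with 2.03 and 2.21. The strongest region that both Panx2 replicates shared at any subunit gene lay inside Polr3g (chr13:81697566-81697733, 168 bp), with folds of 2.52 and 2.13. No Polr1c peak overlapped it.

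At each of these 5 genes the highest Panx2 folds of the replicates came from different places. Polr3b had 4 and 28 Panx2 peaks, with highest folds of 1.86 and 2.57, and 36 and 26 Mgea5 peaks. Polr2b had 1 and 15 Panx2 peaks, with 1.95 and 2.39, and 15 and 13 Mgea5 peaks, with 1.90 and 1.96. Of the genes that led for Mgea5, Polr1a had 4 and 21 Panx2 peaks, with 1.98 and 2.18. Twistnb, with no Polr1c peak, had 2 and 3 Panx2 peaks, with 1.85 and 2.27, and 4 and 5 Mgea5 peaks. Over all subunit genes with a peak, the highest Panx2 fold was between 1.70 at Polr2h and 2.52 at Polr3g in replicate 1, and between 1.56 at Polr2e and 2.89 at Polr3e in replicate 2.

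Many of the Polr1c peaks lay on peaks of the other proteins, as many did over the whole list. A Polr1c peak of either list overlapped a Mgea5 peak of either list at 13 of the 31 genes (41.9%), against 34.1% of all protein-coding genes. It overlapped a Panx2 peak at 10 (32.3%), against 31.9%. Of the 24 Polr1c replicate 2 peaks, 17 overlapped a Mgea5 peak, 3 of them in both Mgea5 replicates, and over the whole list 63.6% overlapped one. Of the same peaks, 14 overlapped a Panx2 peak, 12 of them in replicate 2 and 2 in replicate 1, none in both, and over the whole list 53.0% did. The 3 with Mgea5 peaks of both replicates were in Polr2a, in Polr2j and at the start of Polr3c. Polr3e had 1 Polr1c peak with neither protein, and so did Polr2b and Polr3gl.

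The number of peaks at a subunit gene followed the length of its window. Across the 31 genes, which share the same libraries and are not replicates, Spearman's rho between window length and the number of peaks was 0.690 for Polr1c replicate 2. It was 0.930 and 0.870 for Mgea5 and 0.607 and 0.839 for Panx2 in replicates 1 and 2. The longest window, that of Polr3b at 106887 bp, held 36 and 26 Mgea5 peaks, and the shortest, that of Polr2i at 3314 bp, held 2 and 1. Subunit genes were shorter than genes at large, with a median window of 11757 bp, against 19169 bp over all protein-coding genes.

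**Figure D5:**
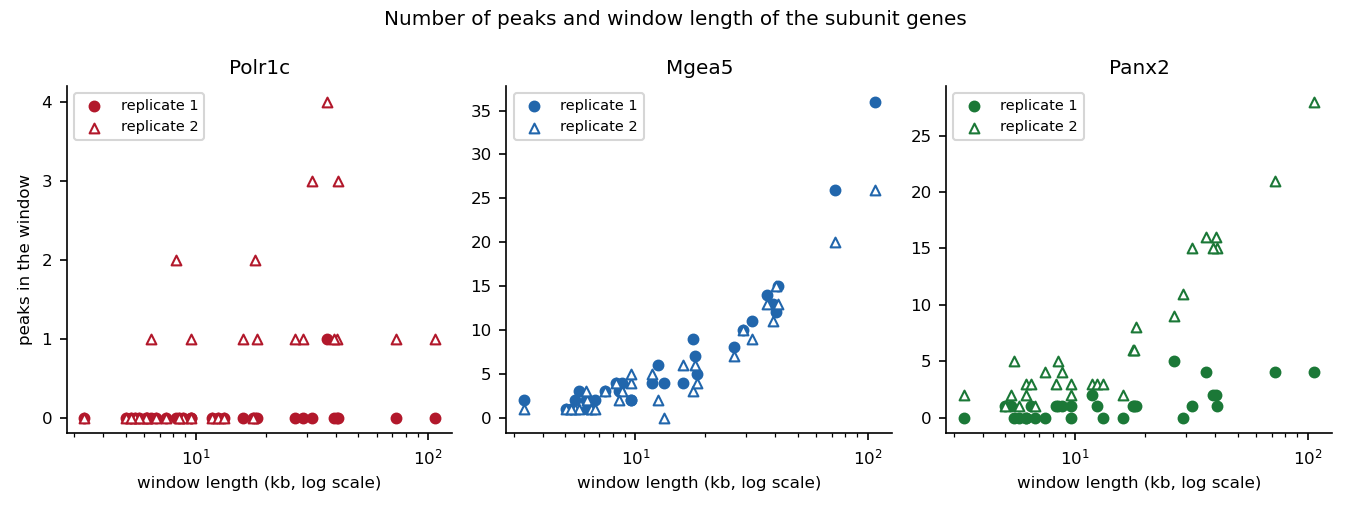
Number of peaks in the window (vertical axis, separate scale for each protein) against window length in kb (horizontal log axis) for the 31 subunit genes, with filled circles for replicate 1 and open triangles for replicate 2. Mgea5 numbers rise with length up to 36 and 26 peaks at Polr3b, and Polr1c replicate 2 reaches 4 peaks at Polr1d.

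The share of a window under broad peaks had a lower rho with window length, of 0.106 and 0.299 for Mgea5 and 0.217 and −0.256 for Panx2. Mgea5 peaks covered a median of 26.2% of a subunit gene window in replicate 1, against 19.2% over all protein-coding genes, and 15.2% in replicate 2, against 12.5%. Coverage was highest at Polr2c, with 60.3%, in replicate 1, and at Polr2g, with 39.0%, in replicate 2. Panx2 peaks covered a median of 2.61% in replicate 1, against 2.24%, and 25.0% in replicate 2, against 18.7%. The Panx2 replicate 2 maximum was 66.3% at Polr2m, whose product associates with polymerase II, where a single peak spanned 5530 bp. Polr1c peaks covered a median of 0% in both lists, with a maximum of 7.71% at Polr2j in replicate 2.

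Polr3d is the 1 subunit gene on chromosome 14 beyond 45 Mb, where each list had few peaks. Peak density there was 0.194 and 0.104 times that of the other autosomes for Polr1c, 0.166 and 0.104 for Mgea5, and 0.0825 and 0.221 for Panx2. Polr3d had no Polr1c peak, 2 and 1 Mgea5 peaks with folds of 2.15 and 1.48, and no Panx2 peak in replicate 1 and 1 in replicate 2 with a fold of 2.51. The part of this sparse stretch in the Polr3d values was not tested.

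Genes of factors that work with the 3 enzymes were read in the same way. A Polr1c replicate 2 peak was listed at 5 of 9 polymerase I factor genes, 9 of 18 polymerase III factor genes and 4 of 18 polymerase II general factor genes, beside the 42.6% of all protein-coding genes, and Polr1c replicate 1 had none at any of them. Gtf3c5, a subunit of the factor that binds tRNA genes, was the 1 gene of these lists whose Polr1c −log10 q reached 2, with a replicate 2 fold of 3.75 and a −log10 q of 4.16. Among all protein-coding genes 3.71% had a replicate 2 peak at that level. In the same order of lists, Mgea5 peaks of both replicates were listed at 9, 17 and 17 genes, beside 82.0% of all protein-coding genes, and Panx2 peaks of both at 6, 14 and 13, beside 57.1%. Their median windows, of 23317, 19979 and 28031 bp, were longer than the 19169 bp of all protein-coding genes. Crcp, a stalk subunit of polymerase III, has a symbol outside the rule and had no Polr1c peak.

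The printed promoters were searched on both strands for short motifs, together with the 28 RefSeq promoters of the subunit genes and the 32851 of all genes. The letters CCGGAAG, a core of ETS factor sites, were in 8 of the 28 (28.6%), against 8.86% of all promoters. They were in the promoters of Cd3eap, Polr1c, Polr1e, Polr2c, Polr2f, Polr2j, Polr3b and Polr3g. The letters GGGCGG, the core of the GC box, were in 15 (53.6%), against 35.7%, and CACGTG, the E box bound by Myc and related factors, in 5 (17.9%), against 7.15%. The letters TATAAA were in 2 (7.14%), against 13.6%, and CCAAT in 9 (32.1%), against 37.4%. TGACGT was in 3 (10.7%), against 7.51%, and GCATGCG in 2 (7.14%), against 3.58%. GGTTCGA was in that of Polr3e alone (3.57%), against 0.91%. The Polr2j promoter holds GCATGCG and CCGGAAG within its capitals, 126 and 19 bp before the start on the printed strand, and GCATGCG again on the other strand at overlapping bases. The Lnx2 promoter holds GGGCGG at 2 places and CCAAT, read on the other strand, at 2. A match says only that these letters are there.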

How the data were processed

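The authors fixed cells with formaldehyde, sonicated the chromatin and made libraries with a NEBNext kit, per the labels' protocols. Tools credited to the submitters' processing notes are MACS3 3.0.0a5, Bowtie2 2.3.5 and Trim Galore, with mm10 as the build. How the caller was set (control, cut-offs, duplicates) is not given in the sources used here, and depth is unknown. The deposited values of a peak are a fold over background, which is a ratio, a −log10 p and a −log10 q. The lowest deposited −log10 p was 1.00 to 1.01 in the Mgea5 and Panx2 lists and 2.00 in the Polr1c lists.

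From there, peaks on the 21 main chromosomes were set against RefSeq GRCm38.p6 genes, with an overlap of at least 1 bp, using Python 3.11.15, numpy 2.4.6, pandas 2.3.3, scipy 1.17.1 and matplotlib 3.10.9. Distances are from summits of narrow peaks and middles of broad peaks, and counts near starts use any overlap unless the middle is named. Strand and starts came from the RefSeq promoter table, which 25 of the 31 genes matched. Counting was tested on simulated peaks. Counts are descriptions with no test, set beside those of all protein-coding genes where these were made.

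Values in all lists are given for Polr1c, for genes with a replicate 1 Polr1c peak or a −log10 q of at least 2 and for the 5 leading genes of each protein by geometric mean fold. The values of 1 gene that this rule also picks are not reported here, and it enters the counts only. Members and lists were chosen with earlier results of these data known. Alternatives were other windows, a −log10 q of at least 2, lists of equal length, an overlap of 50%, windows with no other protein-coding gene and leaving out each replicate.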

Additional observations from a re-analysis of the deposited data

How the results depend on the processing

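The counts of genes with Polr1c peaks of both replicates, and with overlapping ones, were 1 (Polr1d) under each other window, q limit, list length and overlap tried, and 0 of the 13 windows without another protein-coding gene, since Polr1d's window holds Lnx2. In those 13 windows Mgea5 peaks of both replicates were at 13 genes and overlapping ones at 12, Panx2 at 8 and 3, and Polr1c peaks on Mgea5 or on Panx2 at 5 each. At a −log10 q of at least 2, the Mgea5, Panx2 and overlap counts with Polr1c were all 0. With lists of equal length, Mgea5 gave 4 for both counts, and Panx2 and both overlaps with Polr1c gave 0. Within 1 kb of gene ends, Panx2 gave 8, and 3 overlapping, and Polr1c peaks lay on Mgea5 at 7 genes and on Panx2 at 6. With 5 kb flanks, overlapping Panx2 peaks were at 15 genes. The counts for other windows, and for the 13 windows without another gene, were not made over all protein-coding genes. They do not show whether a move is particular to the subunit genes. Leaving out a replicate gave 1 to 15 genes for Polr1c, 30 to 31 for Mgea5, 20 to 31 for Panx2, 1 to 8 for Polr1c on Mgea5 and 0 to 9 for Polr1c on Panx2. The counts in the 13 windows are out of 13 genes and not 31, so as counts they are not comparable with the others. The cause of the other moves was not tested. Overlap between replicates cannot be counted with 1 left out. The other 36 values stayed within 1.5 times the count reported. No paired analysis was possible because the results come from no test. Unknown depth and cut-offs limit what a missing peak says.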
